A study of Mus musculus with 22 samples.

Results

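ATAC-seq peak lists of adipocyte nuclei from epididymal fat were compared between formerly obese mice after weight loss (HHC) and mice still obese at the end of a long high-fat diet (HH). The comparison asked which loci were more or less accessible once the diet had stopped. It holds 6 of the 22 libraries of the series, 3 HHC and 3 HH, each from 1 animal, and they were taken by their labels without use of any signal. All animals were male AdipoERCre x NuTRAP mice, in which a tamoxifen-inducible Cre under the Adipoq promoter switches on a nuclear and a ribosomal tag in adipocytes, and tamoxifen was given before the diets began, so that nuclei of fat cells formed later need not carry the tag. HH mice were 31 weeks old and had eaten a high-fat diet (HFD) for 25 weeks. HHC mice were 39 weeks old and had eaten the same diet for 25 weeks, followed by 8 weeks of chow. The groups thus differed in age as well as in diet. The only mice of these ages without HFD were the long-arm chow controls, CC at 31 weeks and CCC at 39 weeks, with 2 libraries each. By the paper, controls ate a low-fat chow diet, and both groups were given another chow in the weight-loss weeks. CCC and CC thus differ in this switch as well as in age. The short arm held the same step after 12 weeks of HFD, with 3 H mice at 18 weeks and 3 HC mice at 26 weeks after 8 weeks of chow. Its chow controls without HFD were 3 C mice at 18 weeks and 3 short-arm CC mice at 26 weeks. CC named without an arm is the long-arm group. The short arm shares no library with the HHC and HH groups, but short and long arm were separate library series, so that diet length and series cannot be told apart.

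In ATAC-seq the Tn5 transposase inserts adapters into DNA that is not wrapped in nucleosomes, so that active promoters and enhancers collect reads. Mature adipocytes keep open chromatin at the genes of lipid storage and hormone secretion, and obesity brings immune cells into the epididymal depot. Transfer RNA (tRNA) genes are short units transcribed by RNA polymerase III from promoter elements that lie inside the gene, and a large group of them lies among the histone genes on mouse chromosome 13.

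Of the 197 regions with lower signal in HHC described below, 15 held a tRNA gene, 12 of these on chromosome 13 between 21 and 24 Mb, and 182 held none. The tRNA genes are described first. They were noticed after the signal values had been seen, so that their counts are a description. Sequences around 2 of the tRNA genes are shown because each lies under the top of the HH peak in a region with lower HHC signal and had a peak in 3 of 3 HH and 0 of 3 HHC libraries. They are 150-base windows of mm10 read on the strand of the tRNA gene, with the gene (RefSeq) in capitals. The first window lies at chr13:23500923-23501072 on the minus strand and the second at chr13:21919181-21919330 on the plus strand.
n-TSaga7 (tRNA-Ser): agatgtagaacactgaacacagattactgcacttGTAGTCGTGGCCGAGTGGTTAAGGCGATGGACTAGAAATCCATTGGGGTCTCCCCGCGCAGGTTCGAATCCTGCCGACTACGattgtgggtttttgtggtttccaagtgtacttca
n-TSaga5 (tRNA-Ser): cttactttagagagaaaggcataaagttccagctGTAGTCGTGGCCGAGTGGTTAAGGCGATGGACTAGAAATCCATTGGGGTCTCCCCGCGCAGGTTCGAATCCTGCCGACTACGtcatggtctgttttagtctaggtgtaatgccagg
The genes n-TSaga7 and n-TSaga5 were identical over all 82 bases, and this sequence occurred 6 times among the 403 tRNA genes of the annotation. Only the flanking bases set the copies apart, and reads from inside the gene cannot be assigned to 1 copy.

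Of the 104 tRNA genes in this stretch, a peak covered 88, 96 and 103 in the 3 HH libraries and 61, 53 and 45 in the 3 HHC libraries. The groups did not overlap, with a mean of 95.7 ± 7.51 in HH against 53.0 ± 8.00 in HHC (SD, n = 3 each), a difference of -42.7 genes. With only the 30000 strongest peaks of each library the means were 86.3 ± 7.10 and 47.3 ± 7.02. The control libraries were on the HHC side, with 67 and 64 genes in long-arm CC and 72 and 60 in CCC. In the short arm the H libraries had 103, 100 and 103 genes and the HC libraries 85, 88 and 51. The chow controls of that arm had 54, 57 and 80 in C and 81, 65 and 75 in short-arm CC. So in both arms the libraries on HFD had the most covered genes, and none of the other long-arm libraries came above 72.

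The same count was made for the 299 tRNA genes elsewhere in the genome. A peak covered 177, 190 and 193 of them in HH and 173, 176 and 162 in HHC, a smaller gap of -16.3 genes. Of this gap, -9.0 genes came from a group of 25 tRNA genes on chromosome 3 between 96 and 97 Mb, also singled out after its values had been seen. A peak covered 10, 14 and 18 of these 25 genes in HH and 5 in each HHC library, with 5 and 7 in long-arm CC and 5 and 6 in CCC. In the short arm H had 18, 21 and 17 and HC had 5, 8 and 6, so that the libraries on HFD again had the most. In the long arm, 14 of the 25 were covered in more HH than HHC libraries and 0 in fewer, and 5 were covered in all 6. The 274 tRNA genes left gave a gap of -7.33. On chromosome 13, 60 genes were covered in more HH than HHC libraries and 0 in more HHC than HH libraries. Elsewhere these numbers were 35 and 6. A peak in all 3 HH and none of the 3 HHC libraries was found for 23 genes on chromosome 13 and 6 elsewhere, 4 of them in the chromosome 3 group, and the reverse for 0 genes. The stretch carries genes for 17 amino acids, among them 12 alanine, 12 serine, 11 methionine and 10 valine tRNA genes. Of its 47 genes with a sequence found once in the annotation, 37, 42 and 46 were covered in HH and 19, 18 and 13 in HHC. The 57 genes with identical copies gave 51, 54 and 57 in HH and 42, 35 and 32 in HHC, so that the gap was present in both kinds.

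**Figure D1:**
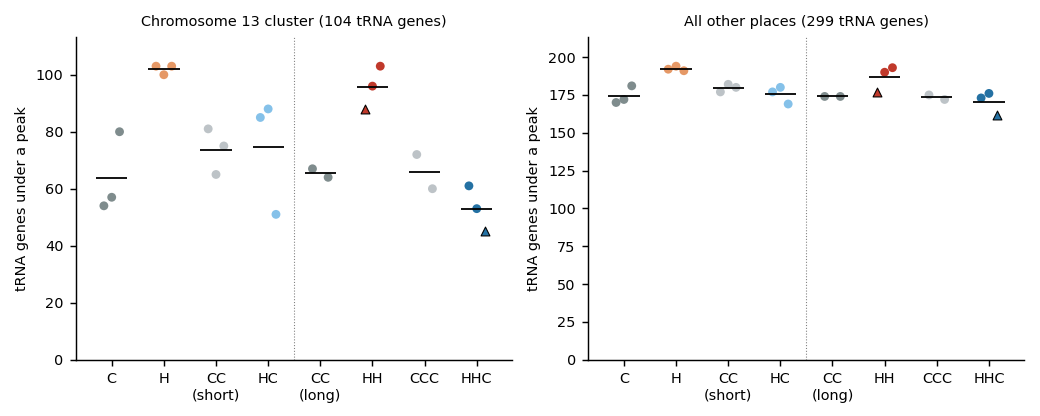
Number of tRNA genes covered by a peak in each library (y axis) by group (x axis, long arm and short arm), for the chromosome 13 stretch (104 genes, left) and for the rest of the genome (299 genes, right). Each point is 1 library, triangles mark HH 1 and HHC 3, and short lines are group means. HH libraries sit between 88 and 103 on the left and HHC libraries between 45 and 61, whereas the groups lie closer together on the right.

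To compare signal, the peaks of all libraries were merged into 104657 regions, each region took the summed peak signal of a library, and the summed signals of each library were replaced by common values according to their order. These values are called rank-mapped log2 signal here. The floor of 14.01 stands for no peak or a peak below the ranks kept, so that differences against it depend on the floor. A region was tested with limma if it was above the floor in at least 3 of the 6 libraries, which held for 28997 regions. None was called at an adjusted p under 0.05 with a log2 difference above 1 (0.0%), and the smallest adjusted p was 0.573 (limma, Benjamini-Hochberg). At an unadjusted p under 0.05, 1691 regions were found, 4.32% of those tested lower and 1.51% higher in HHC. The regions described next passed an unadjusted p under 0.01 with a log2 difference above 1, the cut-off the study used for promoters. They were 197 lower (0.679% of those tested) and 37 higher (0.128%) in HHC. The HHC and HH libraries did not overlap at 3714 of the regions tested (12.8%) and at 2027 promoters (10.3%). They also did not overlap at any of the 197 and 37 regions, so that separate groups at a region chosen by the threshold are part of its choice and no further result. All 3 HHC libraries were at the floor in 38 of the 197 regions and all 3 HH libraries in 7 of the 37. Such a region or promoter was tested only through the group where it was high and could only come out on that side, so its values are given here without a test.

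Libraries HH 1 and HHC 3 stood apart from the other 4. Peaks were low in both, with a median height (maximum signal) of 30 in HH 1 against 62 and 66 in the other HH libraries, and of 18 in HHC 3 against 34 and 77. At the promoter of Adipoq, the gene of the fat-cell hormone adiponectin, the rank-mapped log2 signal was 18.24 in HH 1 and 18.09 in HHC 3 but 21.84 to 21.93 in the others. HHC 3 was at the floor in 42.5% of the regions tested, where the other 5 were at the floor in 7.59% to 19.8%. Peak number, covered length, share of peaks at promoters and the ratio of median to lowest maximum signal did not separate HHC from HH (two-sided exact permutation tests, p = 0.7 to 0.8, smallest possible p 0.1, adjusted p = 0.8 for all 4). The deposited lists give no read totals, and the paper states only a minimum per sample, so that the depth of each library is unknown.

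With HH 1 and HHC 3 left out, 421 of 31528 regions were lower (1.34%) and 261 were higher (0.828%), and again 0 were called after adjustment, with 4434 at an unadjusted p under 0.05. Of the 197 and 37 regions above, 134 and 26 were past the same threshold in both fits. Since the groups did not overlap at these regions, none could change its sign, and 190 and 34 stayed above 1 in size. The balance between the directions moved most with HHC 3, from 197 lower and 37 higher to 133 lower and 146 higher without it. It was 126 and 62 without HHC 1 and 102 and 68 without HHC 2. Without HH 1 it was 307 and 46, without HH 2 86 and 21, and without HH 3 45 and 7.

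**Figure D2:**
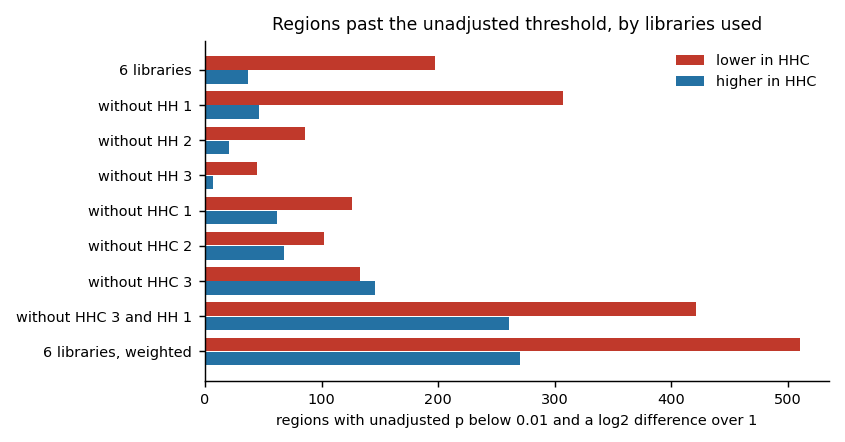
Number of regions past an unadjusted p under 0.01 with a log2 difference above 1 (x axis), lower or higher in HHC, for all 6 libraries and for the other settings (y axis). With all 6 libraries, lower regions (197) exceeded higher regions (37), and without HHC 3 the 2 numbers were close (133 and 146).

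The labelled cell type was checked at promoters, taken as 2000 bp to each side of a start site. All 12 adipocyte markers had a promoter peak in all 6 libraries. Of 12 endothelial markers, 12, 4 and 3 had one in HH and 3, 4 and 8 in HHC. The summed rank-mapped signal of the endothelial list, on a linear scale in arbitrary units shared by all libraries, was 1.61 to 2.86 in HH and 0.732 to 1.26 in HHC, without overlap, but most of it was Egfl7. Without Egfl7 the sums were 0.229 to 1.11 in HH and 0.224 to 0.540 in HHC and overlapped. Away from promoters, merged regions in introns of Pecam1 (-1.05) and Erg (-0.69) were lower in HHC at an unadjusted p under 0.05 (limma). Each had 2 HHC libraries at the floor. An exon region of Flt1 had 14.71, 14.61 and 14.50 in HH and the floor in HHC (-0.59). No region of an endothelial marker was higher at that p. Of 10 mesothelial markers, 1, 2 and 0 had a peak in HH and 2, 4 and 7 in HHC, and their summed signal was 0.187 to 0.189 against 0.343 to 0.679. Of 13 macrophage markers, 2 to 5 had a peak in HH and 3 to 7 in HHC, with summed signals of 0.594 to 0.710 and 0.659 to 1.01, and Cd163, Fcgr1 and C1qa had none in any of the 6. Progenitor markers (10 in all) had a peak for 4 to 8 in HH and 7 to 8 in HHC, and smooth muscle and pericyte markers (8) for 6 to 7 and 5 to 6. Lymphocyte markers (10) had a peak for 1 to 2 in HH and 1 to 3 in HHC, with Cd3e, Cd3g, Cd4, Cd8a, Ms4a1 and Cd2 without a peak in all 6. Epithelial markers (7) had 0 to 2 and 1 to 2, with no peak at Epcam and Cdh1. Mesothelial marker signal, Egfl7 and these endothelial regions thus differed between the groups, and HH 1 had the most endothelial and HHC 3 the most mesothelial markers with a promoter peak. Their part in the differences was not tested. In bulk nuclei, a smaller share of nuclei with an open site and a less open site in every nucleus cannot be told apart.

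**Figure D3:**
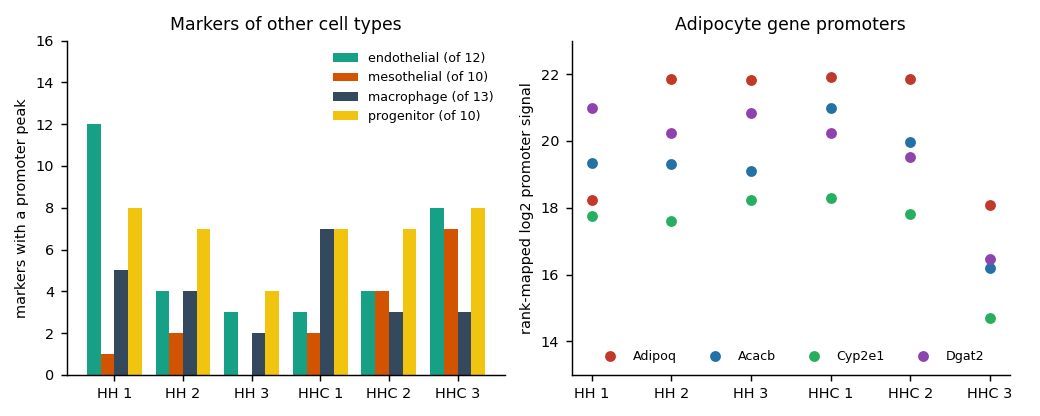
Left, number of cell type markers with a promoter peak (y axis) in each of the 6 libraries (x axis). Right, rank-mapped log2 signal (y axis) at promoters of adipocyte genes in the same libraries, where HH 1 (18.24) and HHC 3 (18.09) lie below the others at Adipoq.

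Among the 28997 tested regions, 132 (0.455%) held at least 1 tRNA gene. They made up 15 of the 197 lower regions (7.61%) and 0 of the 37 higher ones. Put the other way, 11.4% of regions with a tRNA gene were past the threshold toward lower HHC signal, against 0.679% of all regions tested. Of these 132 and 15 regions, 15 and 7 were at the floor in all 3 HHC libraries and could only come out lower. Leaving out the regions at the floor in all libraries of 1 group, 8 of 117 regions with a tRNA gene were lower, and 159 of all 28380 regions. Without HH 1 and HHC 3, 14 of the 132 were lower (10.6%), against 1.31% of all regions tested in both fits, and 9 of the 117 were. When a region had to be above the floor in all 6 libraries, 4 regions with a tRNA gene were among 52 lower ones.

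On the chromosome 13 stretch, 33 tested regions held a tRNA gene. Of these, 9 were at the floor in all 3 HHC libraries and had to be lower in HHC, since they were tested only through HH. The mean signal of the other 24 was also lower in HHC than in HH, with 7 past the threshold and a median difference of -0.86. Over all 33 there were 12 past it and the median was -0.88. The median rank-mapped log2 signal of the 24 regions was 16.40, 16.48 and 17.001 in HH and 15.66, 15.02 and 15.57 in HHC. It was 15.74 and 15.69 in long-arm CC and 15.90 and 15.41 in CCC, so that all 4 control libraries were below the HH libraries. The 39 regions of the same stretch without a tRNA gene, none of them at the floor in a whole group, had 26 below 0, 0 past the threshold and a median difference of -0.13. Elsewhere in the genome, 99 regions with a tRNA gene, 6 of them at the floor in all HHC libraries, had 3 past the threshold toward lower signal (3.03%, against 0.679% of all regions tested) and a median of -0.07, as over all regions tested. Of these 3, 1 was not at the floor in all HHC libraries. Without HH 1 and HHC 3 the median of the 24 regions was -0.73, with 7 past the threshold.

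Histone genes lie between the tRNA genes on this stretch and are read by RNA polymerase II. Of 54 histone genes, 51 had a tested promoter, 0 were past the threshold in either direction, 28 were below 0 and the median difference was -0.08. The histone promoters thus lay near the median of all promoters, while the regions with tRNA genes lay below it. The 2 sets were not tested against each other.

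In the short arm, 29 of the 33 regions were lower in HC than in H, where 53.0% of all regions tested were, and 10 were past the threshold, where 1.01% of all were. The median was -0.91. Of the 24 regions, 20 were lower and 3 were past the threshold, with a median of -0.57. Regions of the stretch without a tRNA gene had a short-arm median of 0.14, with 13 of 39 below 0. Between the chow controls CCC and CC, which differ in age by the same 8 weeks and in the kind of chow, the median over the 33 regions was 0.00, with 13 below 0. The library medians over the 24 regions were 16.67, 16.65 and 16.82 in H and 15.90, 16.23 and 15.81 in HC.

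**Figure D4:**
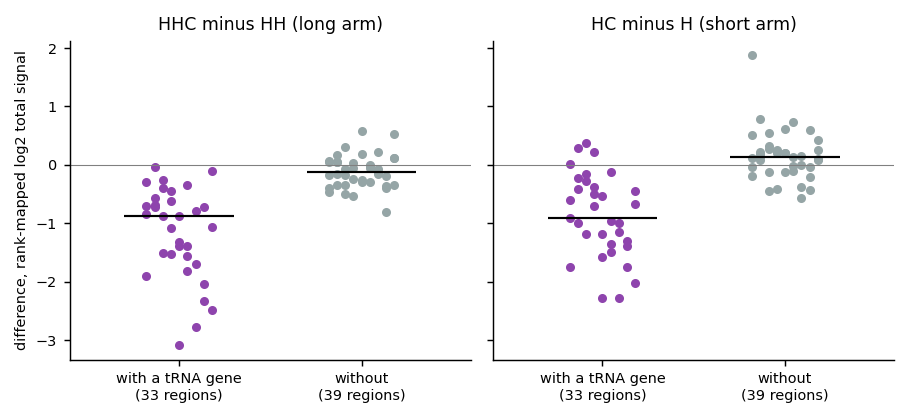
Difference in rank-mapped log2 total signal (y axis) for each tested region of chromosome 13 between 21 and 24 Mb, with (33 regions) and without (39 regions) a tRNA gene (x axis), for HHC minus HH and for HC minus H in the short arm. All 33 regions with a tRNA gene lie below 0 in HHC minus HH, with a median of -0.88, and 9 of them were at the floor in all HHC libraries, whereas those without scatter around -0.13.

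Of the 15 lower regions with a tRNA gene, 3 lay off this stretch. At chr3:96320949-96324670, which holds n-TNgtt4 for asparagine, the signal was 15.26, 15.14 and 15.65 in HH and at the floor in all 3 HHC libraries (difference -1.33). At chr3:96434575-96437278, which holds n-THgtg2 for histidine, it was 14.91, 14.72 and 15.46 against the floor in all 3 (-1.02). At chr19:12000493-12017059, with n-TVtac1 for valine, it was 18.47, 18.33 and 18.88 in HH and 17.16, 17.48 and 17.94 in HHC (-1.04). The top of the strongest peak lay within the tRNA gene in 11 of the 15 regions and 59 to 101 bp from it in the other 4.

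Regions are named here by a rule of smallest p among those that stayed above 1 in size without HH 1 and HHC 3, with 7 lower and 8 higher regions given. Of the 7 lower regions, 4 lay on the chromosome 13 stretch. The first was intergenic at chr13:23496529-23508779, nearest to Btn2a2, a butyrophilin of the immunoglobulin superfamily, and holds n-TSaga7. Its rank-mapped log2 signal was 17.10, 17.16 and 17.61 in HH and 14.57, 14.01 and 14.01 in HHC. The difference was -3.09 (SE 0.38, unadjusted p = 1.98e-05, adjusted p = 0.573, limma), and -3.09 without HH 1 and HHC 3. All 3 HHC libraries were well below all HH libraries. The controls were low as well, at 14.01 and 14.36 in CC and 15.12 and 15.19 in CCC, and the difference beyond that between the controls was -4.06 (SE 0.51, unadjusted p = 1.04e-05, limma).

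The region at chr13:21912837-21922128, which holds n-TSaga5 and has no gene start within 20000 bp, was at 16.26, 16.65 and 17.49 in HH and without a peak in all 3 HHC libraries, a difference of -2.78. At the promoter of the noncoding gene 4930557F10Rik, chr13:23306079-23312312, which also holds a tRNA gene, the HH values were 16.40, 15.98 and 16.64 and all 3 HHC values were at the floor (-2.33). At an exon of Gm11280, chr13:21930460-21942686, HH had 17.23, 17.16 and 17.94 and HHC 15.35, 14.90 and 15.96 (-2.04, SE 0.37). In the short arm the differences between HC and H at the 4 regions were -2.28 near Btn2a2, -2.28 at the region of n-TSaga5, -1.75 at 4930557F10Rik and -1.38 at Gm11280. Beyond the controls, the differences were -3.09 at the region of n-TSaga5, -2.35 at 4930557F10Rik and -2.15 at Gm11280. By maximum signal the 4 regions had -1.54, -2.03, -1.67 and -0.78, in the order given for the short arm.

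The other 3 lower regions were spread over the genome. An intronic region of Mgat5, which encodes an N-acetylglucosaminyltransferase that branches N-glycans, lies at chr1:127413142-127426581. It had 16.65, 16.84 and 16.93 in HH and 14.36, 14.16 and 14.01 in HHC, a difference of -2.63 (SE 0.38, unadjusted p = 8.00e-05, adjusted p = 0.810, limma). All 3 HHC libraries were near the floor, as were the controls (14.01 to 14.85), while the short-arm HC libraries had 15.87 to 16.08, below the 16.77 to 17.19 of H. The difference was larger in size in the long than in the short arm, by -1.63 (SE 0.35, unadjusted p = 0.000516, limma), but no region passed adjustment for this contrast.

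The promoter of Gm4952, chr19:12593819-12611919, had 17.58, 17.68 and 18.15 in HH and 16.31, 16.37 and 16.05 in HHC (-1.56, SE 0.25). The promoter of Srrm4, a splicing factor of neural microexons, had 16.58, 16.37 and 17.27 in HH and 14.52, 14.58 and 14.01 in HHC at chr5:116437755-116455542 (-2.37, SE 0.42). Chow controls were at 15.26 to 16.06 at Srrm4, between the 2 groups. Beyond the controls the differences were -2.21 at Mgat5, -1.19 at Gm4952 and -3.04 at Srrm4. By maximum signal the differences between HHC and HH were -1.43 at Mgat5, -0.48 at Gm4952 and -1.13 at Srrm4.

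**Figure D5:**
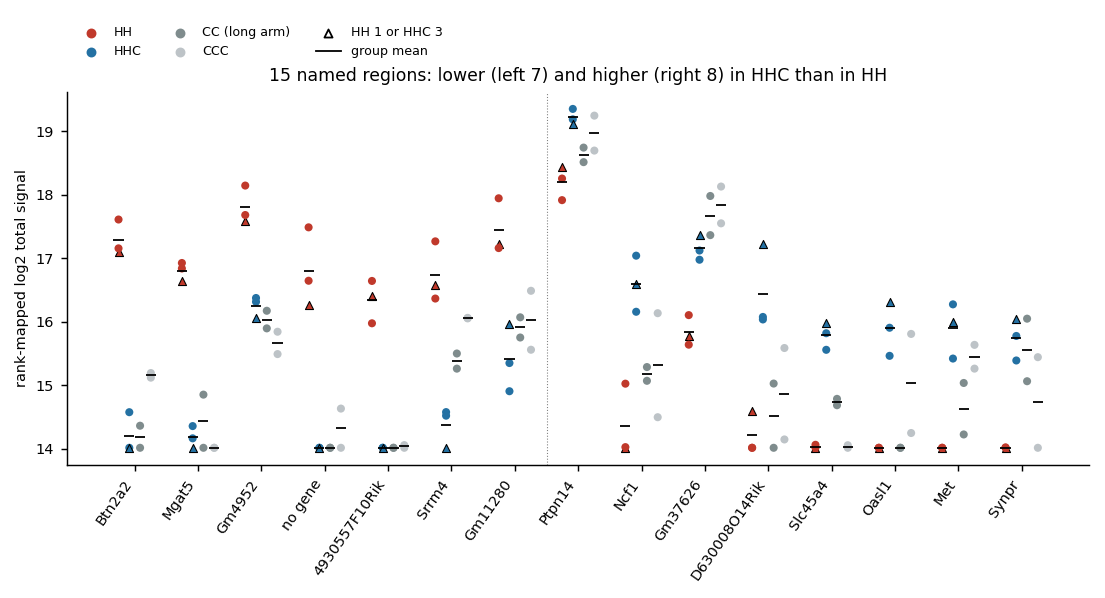
Rank-mapped log2 total signal (y axis) at the 15 named regions (x axis, lower regions left of the dotted line, higher regions right of it) in HH, HHC and the 2 chow control groups of the long arm. Points are libraries, triangles mark HH 1 and HHC 3, and short lines are group means. At the region near Btn2a2 the HH libraries lie between 17.10 and 17.61 and the HHC libraries between 14.01 and 14.57.

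Of the 8 higher regions, 2 lie at promoters of genes with a role in immune cells. Ncf1, which encodes the p47phox subunit of the phagocyte NADPH oxidase, had 14.01, 15.02 and 14.02 in HH and 17.04, 16.16 and 16.59 in HHC at chr5:134225750-134254597. The difference was 2.24 (SE 0.47, unadjusted p = 0.00106, adjusted p = 0.810, limma) and 2.07 without HH 1 and HHC 3. Every library had a peak at Ncf1, with maximum signals of 23, 36 and 25 in HH and 27, 40 and 18 in HHC. Oasl1, an interferon-induced gene, was at the floor in all HH libraries and at 15.91, 15.46 and 16.31 in HHC at chr5:114920150-114927897 (1.88). HH 2 had a peak there below the ranks kept. Chow controls at Oasl1 were at the floor in CC and at 14.25 and 15.81 in CCC, so that the difference beyond the controls was 0.87. The short-arm difference was 0.45 at Ncf1 and 0.97 at Oasl1.

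The region with the smallest p lay at the promoter of Ptpn14, a protein tyrosine phosphatase, at chr1:189736059-189821312, with 18.44, 18.26 and 17.92 in HH and 19.19, 19.35 and 19.11 in HHC. The difference of 1.01 (SE 0.19, unadjusted p = 0.000507, limma) was the smallest of the 8 and 1.18 without HH 1 and HHC 3. An intronic region of Met, the receptor for hepatocyte growth factor, was at the floor in HH and at 15.42 to 16.27 in HHC at chr6:17496510-17513217 (1.88). HH 2 and HH 3 had a peak there below the ranks kept, with maximum signals of 37 and 58. Those of HHC were 22, 47 and 20. Chow controls at Met were at 14.22 and 15.03 in CC and 15.63 and 15.26 in CCC, so that CCC was also above CC there. At the promoter of Slc45a4, a solute carrier, HH had 14.01, 14.06 and 14.01 and HHC 15.82, 15.56 and 15.98 (1.76), at chr15:73587083-73604981. The difference beyond the controls at Slc45a4 was 2.46. HH 1 and HH 3 were at the floor there and HH 2 near it, so that Slc45a4 was tested through HHC and its values are given without a test.

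The last 3 higher regions were at the promoters of Gm37626 and D630008O14Rik and in an intron of Synpr, a synaptic vesicle gene. At Gm37626, chr1:44557291-44602336, HH had 15.77, 15.64 and 16.10 and HHC 17.12, 16.98 and 17.37 (1.32, SE 0.28). D630008O14Rik had 14.60, 14.01 and 14.01 in HH and 16.04, 16.08 and 17.22 in HHC (2.23), at chr1:106535658-106557052. It was the region where the arms differed by the most among the 15, by 3.39, since HC was -1.16 against H there. HH 2 and HH 3 were at the floor at D630008O14Rik, so that these differences depend on the floor and are given without a test. Synpr, at chr14:13594217-13601982, was at 14.01 to 14.02 in HH and 15.78, 15.39 and 16.05 in HHC (1.72), with -0.03 in the short arm. With HH at or near the floor, it too is given without a test. By maximum signal the differences were 0.61 at Ncf1, 2.54 at Oasl1, 0.28 at Ptpn14 and 0.52 at Met. They were 0.60 at Slc45a4, 0.14 at Gm37626, 0.52 at D630008O14Rik and 0.81 at Synpr. Beyond the controls the differences in total signal were 2.11 at Ncf1, 0.87 at Oasl1, 0.67 at Ptpn14 and 1.07 at Met. At Gm37626, D630008O14Rik and Synpr they were 1.15, 1.89 and 2.55.

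The 197 lower regions were less often promoters than the regions tested, with 27.9% at promoters against 47.4%, and 32.5% against 20.8% between genes. Of the 37 higher regions, 51.4% were promoters. Lower regions had a median GC content of 46.0% in the 300 bases around the peak top, against 51.0% for all regions tested and 49.7% for higher regions. The median rank-mapped log2 signal over the lower regions was 15.81, 15.74 and 16.07 in HH and 14.27, 14.11 and 14.01 in HHC. It was 14.37 and 14.39 in long-arm CC and 14.58 and 14.07 in CCC, so that the controls lay close to HHC. Over the higher regions the HH libraries had 14.01, 14.18 and 14.02 and the HHC libraries 15.90, 15.83 and 16.20, with 15.06 and 15.07 in CC and 15.36 and 15.81 in CCC. There the controls lay between the 2 groups.

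The short arm shares no library with these groups, and there 181 of the 197 lower regions (91.9%) also had a negative difference between HC and H, against 53.0% of all regions tested. The median difference was -0.91 against -0.03, and 31 of the 197 were past the threshold in the short arm in the lower direction, where 1.01% of all tested regions were. Of the 37 higher regions, 25 (67.6%) had a positive difference between HC and H, against 45.3% of all regions tested, and 0 were past the threshold there. HC 3, like HHC 3, had a low median over the regions tested (14.72, against 15.35 in HC 1 and HC 2), and its part in these shares was not tested. Between the chow controls the median difference was 0.00 over the lower and 0.25 over the higher regions.

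The sequence under the peak tops was searched on both strands for 8 motifs, in the 300-base window around the top of the strongest peak of a region. The AP-1 motif was searched as TGANTCA with any middle base. This is looser than the usual site of Fos and Jun proteins, which has C or G there and was not counted apart. TGANTCA was present in 44 of 197 lower regions (22.3%), 6 of 37 higher regions (16.2%) and 11.05% of the windows of all regions tested. Away from promoters it was in 21.8% of 142 lower regions and 14.3% of all such windows. The 2 windows below are shown for these letters, with each match in capitals on the plus strand of mm10. The match in the second window is TGAATCA, with A in the middle. Both were chosen after their values had been seen. The first, at chr12:100326842-100327141, lies in a region over an exon of Ttc7b with 17.42, 17.02 and 17.52 in HH and 16.06, 16.28 and 15.90 in HHC (-1.24, SE 0.27), and the second, at chr4:47671424-47671723, in an intergenic region with 15.92, 15.41 and 16.16 in HH and all HHC libraries at the floor (-1.82).
Ttc7b exon region: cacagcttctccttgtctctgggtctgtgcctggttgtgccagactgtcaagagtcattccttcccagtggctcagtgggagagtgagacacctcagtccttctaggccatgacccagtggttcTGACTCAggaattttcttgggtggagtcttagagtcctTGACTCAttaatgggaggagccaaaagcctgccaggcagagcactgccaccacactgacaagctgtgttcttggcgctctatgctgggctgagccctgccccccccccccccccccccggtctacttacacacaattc
chr4 intergenic region: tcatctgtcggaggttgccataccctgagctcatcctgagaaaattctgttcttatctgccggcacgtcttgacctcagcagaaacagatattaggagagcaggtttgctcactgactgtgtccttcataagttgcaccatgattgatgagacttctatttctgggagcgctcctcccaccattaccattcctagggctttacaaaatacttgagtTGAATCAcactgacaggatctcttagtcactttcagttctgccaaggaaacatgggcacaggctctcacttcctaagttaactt
A match shows only that the letters occur there.

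The shares of the other motifs are given in the same way. The C/EBP motif TTNNNCAA was in 56.3% of lower, 62.2% of higher and 48.6% of all windows, and the RUNX motif TGTGGT in 22.8%, 24.3% and 17.9%. The nuclear receptor motif AGGTCA was in 19.3%, 5.41% and 19.2%, and the glucocorticoid receptor motif ACANNNTGT in 11.2%, 5.41% and 9.04%. For NF-kappaB, GGGNNTTCC, the shares were 3.05%, 8.11% and 5.30%, for ETS, GAGGAAGT, 1.02%, 5.41% and 2.28%, and for the E-box CACGTG 6.09%, 2.70% and 6.33%. With 37 higher regions a share of 5.41% is 2 windows. Matches of different motifs could overlap and were counted for each motif.

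A second count did not use the signal values. Of the 104657 regions, 135 (0.129%) had a peak in 3 of 3 HHC and 0 of 3 HH libraries, here called opened, and 726 (0.694%) the reverse, here called closed. At a further 14948 regions all 6 libraries had a peak. Of the closed regions, 15.01% were promoters, against 32.6% of the opened and 23.1% of all regions. Fewer HC than H libraries had a peak at 494 of the closed regions (68.0%), and more at 68. The share with fewer was 15.8% of all regions and 26.0% of those with a peak in at least 3 of the 6 libraries. Of the opened regions, 68 (50.4%) had a peak in more HC than H libraries, and 16 in fewer. The share with more was 28.7% of all regions and 12.3% of those with a peak in at least 3 of the 6 libraries. No chow control library of the long arm had a peak at 260 closed regions (35.8%) and 29 opened ones (21.5%), where this was 56.1% of all regions and 5.64% of those with a peak in at least 3 of the 6 libraries. Every chow control library had one at 13.5% of the closed and 20.7% of the opened regions, against 22.5% and 71.8%.

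The counts depended strongly on the settings. They were 106 opened and 277 closed with the 30000 strongest peaks of each library, 91 and 222 when peaks had to cover 50% of a region, and 848 and 2693 without HH 1 and HHC 3. The closed regions were more numerous in all of these. Of the 135 opened regions 88 were tested for signal and of the 726 closed regions 410, and their direction was set by the way they were chosen. The AP-1 motif was in 17.6% of the 410 closed and 10.2% of the 88 opened windows.

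By maximum signal, the first opened regions were at the promoter of Dip2b, in an intron of the aspartic protease gene Ctse and at the promoter of Cdc20b. Maximum signals in HHC were 56, 88 and 18 at Dip2b (chr15:100037427-100048352), 43, 89 and 23 at Ctse (chr1:131657042-131660084) and 26, 91 and 24 at Cdc20b (chr13:113031264-113038202), all with no peak in HH. At Dip2b the difference in rank-mapped log2 signal was 1.05 and at Cdc20b 0.50. Ctse was near the floor and was not tested. The first closed region was the one of n-TSaga5 described above, with maximum signals of 33, 106 and 166 in HH. An intron of Lrp2, which encodes the endocytic receptor megalin, had 39, 107 and 144 (chr2:69528804-69533170; log2 difference -0.67), and an intergenic region at chr16:83418969-83422409 had 21, 101 and 162 and was not tested.

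At gene level, 19747 promoters were tested. None was called after adjustment (smallest adjusted p = 0.129, limma), 832 had an unadjusted p under 0.05 (2.69% of those tested lower and 1.52% higher), and 88 (0.446%) were lower and 55 (0.279%) higher at the unadjusted threshold. Without HH 1 and HHC 3 these were 199 (0.991%) and 250 (1.24%) of 20084. Of the 88 and 55, 76 and 53 kept their sign and stayed above 1. The floor for promoters was 14.19, and the median difference over all promoters was -0.07.

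The following 4 higher promoters are given as single genes and were picked after their values had been seen. Coro1a, which encodes an actin-binding protein of leukocytes, had 14.64, 15.77 and 14.86 in HH and 18.27, 18.48 and 17.66 in HHC (3.05, SE 0.41, unadjusted p = 0.000194, adjusted p = 0.536, limma). Aif1, the gene of the macrophage protein Iba1, had 15.71, 14.19 and 14.19 in HH and 18.31, 18.74 and 16.77 in HHC (3.25). Spi1, the gene of the myeloid factor PU.1, had 15.12, 14.61 and 14.77 against 16.62, 16.09 and 15.82 (1.35). In the short arm the differences were 0.10 at Coro1a, -0.48 at Aif1 and 0.57 at Spi1, and CCC was above CC by 1.84 at Spi1. Dnmt3a, a DNA methyltransferase gene, was at the floor in HH and at 16.83, 16.18 and 16.53 in HHC (2.32), and was thus tested only through HHC. Of 13 macrophage markers 3 were tested, with a median difference of -0.15, 1 above 0 and 0 past the threshold, and 12 of 26 inflammatory genes were above 0.

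Among lower promoters, Gm9625 and the hair cell gene Clrn2 had the smallest p, and both were tested only through HH. Gm9625 had 17.16, 17.03 and 17.17 in HH and the floor in all HHC libraries (-2.93), and all 4 chow control libraries of the long arm were at the floor too. In the short arm H had 16.95 to 17.01 and HC the floor in all 3 libraries (-2.79). Clrn2 had 17.50, 16.97 and 17.50 in HH and the floor in HHC (-3.13), but the chow controls also differed there, with 17.66 and 17.16 in CC and the floor in CCC (-3.22). Fstl1, which encodes a secreted follistatin-like protein, had 15.94, 17.78 and 17.59 in HH and 14.19, 14.19 and 15.33 in HHC (-2.53). Egfl7, an endothelial gene and a member of the endothelial marker list, had 20.74, 20.39 and 20.42 in HH and 19.61, 18.90 and 19.47 in HHC (-1.19, SE 0.27).

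Over the 8 gene lists of adipose biology, 3 of 187 tested promoters (1.604%) were past the threshold, 2 lower and 1 higher, where 0.446% of all promoters were lower and 0.279% higher. Without HH 1 and HHC 3, 1 of 184 was lower and 3 were higher, where these shares were 0.991% and 1.24%. Of 31 genes of adipocyte identity and lipid storage, all 31 were tested, 0 passed, and the median difference was -0.41 (-0.21 without HH 1 and HHC 3, where 1 gene, Cfd, was past the threshold and higher). The 21 lipogenesis genes had 0 and a median of -0.53 (-0.23). For comparison, the median over all promoters was -0.07 (-0.06). Lep, the gene of the satiety hormone leptin, had 20.11, 19.74 and 20.32 in HH and 19.43, 18.96 and 18.01 in HHC (-1.26, SE 0.41, unadjusted p = 0.0194, adjusted p = 0.987, limma), without overlap. Fabp4, the fatty acid carrier, was at 19.96 to 20.76 in HH and 19.18 to 19.82 in HHC (-0.84). Pnpla2, which encodes the lipase ATGL, was at 19.98 to 20.40 and 20.10 to 20.90 (0.39).

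Some of these promoters followed HHC 3. Cfd, the gene of adipsin, had 17.58, 17.66 and 17.43 in HH and 19.77, 20.09 and 15.28 in HHC, a difference of 0.82 (SE 1.23) that became 2.38 without HH 1 and HHC 3. Acacb, which encodes an acetyl-CoA carboxylase, had 19.33, 19.31 and 19.10 against 20.98, 19.98 and 16.19 (-0.20, and 1.28 without the 2 libraries). Cyp2e1, a cytochrome P450 gene, had 17.77, 17.60 and 18.22 against 18.28, 17.83 and 14.69. In HHC 1 and HHC 2 these promoters were within or above the HH range, and in HHC 3 they were below it. Gpam, an acyltransferase of triglyceride synthesis, had 17.98 to 18.76 in HH and 19.47, 17.95 and the floor in HHC. Dgat2, which makes triglycerides, was at 20.25 or more in HH and at 20.23, 19.51 and 16.47 in HHC (-1.96, SE 0.93), and Dgat1 18.81 to 18.97 and 18.09 to 18.53 (-0.58). Slc25a1 (0.29) and Tkt (0.33) had differences below their SE. The merged region over the Tkt promoter, 84058 bp wide, was higher in HHC by 0.61 (SE 0.17, unadjusted p = 0.00626, adjusted p = 0.810, limma). Adipoq had a difference of -0.02 and Maob of -0.14.

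Of 33 genes of extracellular matrix and TGF-beta signalling, 27 were tested and 2 were past the threshold, both lower, where 0.446% of all promoters were, with a list median of -0.11. Without HH 1 and HHC 3, 26 were tested, with 1 higher (Tgfb1, 1.46) and 1 lower (Col15a1, -2.85). Sparc, a collagen-binding matricellular protein, had 19.71, 19.44 and 19.80 in HH and 18.46, 18.68 and 17.89 in HHC (-1.31, SE 0.30, unadjusted p = 0.00373, adjusted p = 0.987, limma), with -0.98 in the short arm. HHC was below HH in all libraries at Sparc. Tgfb1 was 16.66 to 18.05 in HH and 18.10 to 18.36 in HHC (1.04, SE 0.42), and Tgfb3 was 0.98 (SE 0.45), neither past the threshold with all 6 libraries. Runx2 had 0.01 (SE 0.74).

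Of 28 lysosome and lipid-associated macrophage genes, 22 were tested and 1 was past the threshold. This was Ctsb, the gene of the lysosomal protease cathepsin B, with 16.72, 17.45 and 16.93 in HH and 19.51, 19.13 and 18.57 in HHC (2.03, SE 0.36, unadjusted p = 0.000991, adjusted p = 0.950, limma) and 2.13 without HH 1 and HHC 3. HHC was above HH in all libraries, and CCC was above CC by 1.26. Ctsz had 1.02 (SE 0.50), Ctsd had 0.45, and Spp1 and Npc1 had -0.64 and -0.38. The list median was 0.01. Lyz2 and Tyrobp were not tested because too few libraries were above the floor.

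The 32 inflammatory genes gave 26 tested and 0 past the threshold (median -0.10), with Irf1 at 1.34 (SE 0.56), Tnf at 1.19 (SE 0.64), Icam1 at 0.65 (SE 0.74), Il6 at -0.66 (SE 0.34) and Nfkbia at -0.52 (SE 0.37). The 21 mitochondrial and thermogenic genes gave 19 tested and 0 past it (median 0.26), with Esrrg, an orphan nuclear receptor gene, at 14.19 to 15.07 in HH and 15.40 to 16.24 in HHC and with Cidea at a difference of 1.47 (SE 0.68). Etfdh and Dio2 had -0.51 and -0.66. In the 18 genes of AP-1 and stress response 0 passed (median -0.09), and the AP-1 family gene Atf3 had 0.92 (SE 0.62), Jund 0.22, Hmox1 -0.86 and Fosb -0.52. In the 23 glucocorticoid and circadian genes 0 passed (median -0.15), with Nfil3, a clock-linked repressor gene, at -1.63 (SE 0.64), Cry2 at -1.05, Per3 at 0.57 and Per2 at 0.31. In the fit over merged regions, 0 of 258 regions linked to a gene of the 8 lists were past the threshold, where 0.679% of all regions were lower and 0.128% higher. Without HH 1 and HHC 3, 3 of 267 were past it, all higher, where 0.828% of all regions were. They were the promoter of Tgfbr2 (1.65, unadjusted p = 0.00111, limma), an intron of Tgfbr2 (1.35), which was at the floor in HH 2 and HH 3, and the promoter of Acaca (1.52). With all 6 libraries Acaca had 18.13, 18.00 and 17.56 in HH and 19.67, 18.93 and 15.08 in HHC, so that HHC 3 was below all HH libraries and the difference was -0.0068 (SE 0.98).

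Across all regions, the change from HH to HHC was also set against the change between the chow controls of the same ages. Beyond that change, 198 regions (0.683%) were lower and 42 (0.145%) higher at the unadjusted threshold, with 0 after adjustment and 1271 (4.38%) at an unadjusted p under 0.05. Between CCC and CC themselves, 24 regions were lower (0.0828%) and 57 higher (0.197%). Against the short arm, 35 regions (0.121%) had a lower and 55 (0.19%) a higher change in the long arm, with 0 after adjustment and 775 (2.67%) at an unadjusted p under 0.05. In HC against H, 292 regions (1.01%) were lower and 77 (0.266%) higher.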

How the data were processed

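Nuclei were isolated from snap-frozen epididymal fat and tagmented with Tn5. Per the submitters' processing notes, the tools were Trim Galore 0.6.6, Bowtie2 2.4.4, SAMtools 1.13, bedtools 2.30 and SEACR 1.3, with mm10 as the build. The authors called peaks per library with SEACR (stringent, top 0.01), and the deposited lists hold, for each peak, the total signal, the maximum signal and its position. This signal is whole-number read coverage without normalization, and the depth of each library is unknown. Each library had 1 peak on the mitochondrial genome, which was not used.

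Peaks of all 22 libraries were merged (overlap of 1 bp or more). Log2 total signals of the 30083 strongest regions of each library were mapped by rank to common values, with a floor of 14.01. Promoters were 2000 bp to each side of GENCODE vM21 start sites, tRNA genes were from RefSeq (GRCm38.p6), and a promoter took the whole signal of each peak that overlapped it. HHC and HH were compared with limma 3.58.1 in R 4.3.3 (eBayes with trend) on regions above the floor in at least 3 of 6 libraries, adjusted by Benjamini-Hochberg over all of them. Library measures were tested by exact permutation. Interactions with the chow controls and with the short arm were fitted in the same way. Replicates are biological replicates by label. Python 3.11.15 with pysam 0.24.0 read the sequences.

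Named regions were the 8 of smallest p in each direction past an unadjusted p of 0.01 and a log2 difference of 1 that stayed above 1 without HHC 3 and HH 1, plus the 3 opened and 3 closed regions of highest maximum signal. A region took the name of the gene it overlapped or of the nearest start within 20000 bp. Named genes were the 2 of smallest p per list and direction plus 10 preset genes. Of these, 1 region and 1 gene are not reported here. The comparison, the lists and the rules were chosen with earlier results of these data known. The tRNA sets and the genes said to be singled out were chosen after their values had been seen.

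On simulated data with 200 regions changed by 2 on the log2 scale, 124 regions were called after adjustment, 117 of them true. At the unadjusted threshold 315 passed, 173 of them true. All simulated libraries were normal draws from the HH means and shuffled HH spreads. They had no floor and no library like HHC 3, so that these counts do not give the power or error rate of the real comparison. The alternatives were the replicate number as a block, each library left out, HHC 3 and HH 1 both left out, sample quality weights, maximum signal, median scaling, other floors and fits, the 30000 strongest peaks and a 50% overlap.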

Additional observations from a re-analysis of the deposited data

Results flagged for a closer look

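The promoters of Gm37308 and Ifitm5 were picked out by the interaction test between the arms. At Gm37308, a processed pseudogene on chromosome 3, the change from HH to HHC exceeded that from H to HC by 4.15. HH was at the floor of 14.19 in all 3 libraries, so that this promoter was tested only through HHC and could only come out higher there, and its difference is given without a test. HHC was at 16.28, 16.50 and 15.06 (1.76), while H had 16.41, 16.73 and 16.60 and HC the floor in all 3 (-2.39). At Ifitm5, the bone member of the gene family named interferon-induced transmembrane, on chromosome 7, the excess was 5.72 (SE 0.55, adjusted p = 0.0122, limma). HH had 14.19, 14.48 and 14.19 and HHC 16.70, 16.61 and 18.20 (2.89), while H had 17.13, 17.41 and 16.74 and HC 14.19, 14.19 and 14.39 (-2.84). At Gm37308 the chow controls of the short arm were all high, with 16.83, 16.70 and 17.09 in C and 16.52, 16.06 and 16.85 in CC, while those of the long arm had 16.79 and 16.45 in CC and 14.19 and 14.59 in CCC. At Ifitm5 the short-arm controls had 16.42, 16.12 and 16.09 in C and 16.65, 17.05 and 14.19 in CC, and the long-arm controls 14.19 and 15.08 in CC and 16.43 and 15.14 in CCC. Since the low group was at or near the floor in each arm, the size of both differences depends on the floor.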

How the results depend on the processing

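Region calls after adjustment were 0 except with sample quality weights, which gave 2 (Btn2a2, adjusted p = 0.0249, and Mgat5, adjusted p = 0.0351, limma), and 1 (Btn2a2, adjusted p = 0.0177, limma) for the change beyond the controls. Promoter calls were 1 with weights (Gm9625), 2 with the 4 long-arm groups in 1 fit (Gm9625 and Clrn2) and 2 with maximum signal (Clrn2 and Spaca4). Gm9625 and Clrn2 were at the floor in all HHC libraries.

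The 37 higher and 197 lower regions became 261 and 421 without HHC 3 and HH 1, 270 and 510 with weights, 105 and 385 with 4 groups, 71 and 310 without the trend and 20 and 126 with median scaling, and the lower ones 52 when all 6 libraries had to be above the floor. The 55 higher and 88 lower promoters became 250 and 199 without HHC 3 and HH 1, 194 and 190 with weights, 32 and 39 above the floor in all 6 and 35 and 52 with median scaling, and the lower ones 149 with 4 groups and 51 with maximum signal. Beyond the controls, higher and lower regions were 187 and 444 without HHC 3 and HH 1 and 211 and 536 with weights. Against the short arm, higher regions were 113 without HHC 3 and HH 1, and higher and lower 166 and 210 with weights. Opened regions were 848 and closed regions 2693 without HHC 3 and HH 1, and closed regions were 277 with the 30000 strongest peaks and 222 with 50% covered. The cause of these shifts was not tested.

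Leaving out each library in turn gave 7 to 146 higher and 45 to 307 lower regions, 27 to 214 higher and 47 to 181 lower promoters, 184 to 589 opened and 923 to 2266 closed regions. The difference in library measures changed sign, from -6133 to 1777 peaks, -19.3 to 31.6 Mb covered, -1.13 to 3.25 percentage points of promoter share and -2.07 to 0.0167 in signal ratio. The difference of tRNA genes under a peak on chromosome 13 was -46.7 to -38.7. Lower regions with a tRNA gene were 6 to 14, with 6 without HHC 1 or HHC 2 and 8 without HH 3, and 4 above the floor in all 6 and 9 with median scaling. These tRNA alternatives were chosen after seeing the data.

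Same-numbered HHC and HH libraries did not deviate together (r = -0.30, 0.28 and -0.25), so the numbers do not pair the animals. With the replicate number as a block, 13 regions were higher and 63 lower, 48 promoters higher and 38 lower, and against the short arm 33 regions higher and 17 lower, with 0 calls after adjustment. Of 214 values of the named regions given here under the alternatives, 189 kept direction and side of the threshold and 25 kept the direction but lost the threshold. Maximum signal took 11 of the 15 named regions below the threshold. With 3 libraries a group and the depth of each unknown, a region without a call is not shown to be unchanged.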
